A study of Homo with 4 samples.

Results

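Genes whose transcripts share a start but stop at different places were examined in H1299 cells after knockdown of IGF2BP3. H1299 cells are a long-established line from a human non-small cell lung carcinoma. Cells had been infected with lentivirus carrying a control hairpin (shCtrl, n = 2) or a hairpin against IGF2BP3 (shIGF2BP3, n = 2), and the labels give the genotypes as WT and IGF2BP3 knockdown. All libraries came from total RNA of cells grown in medium with serum, and the labels call the libraries of a group biological replicates. The study used more than one hairpin, and whether the shIGF2BP3 libraries carry the same one was not given in the sources used here.

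A gene was taken if it had at least 2 transcripts with a mean of 1 FPKM or more over the 4 libraries, all with 5′ ends inside 1000 bp and with 3′ ends 500 bp or more apart, and if no other gene overlapped it on the same strand. FPKM is the number of fragments scaled to transcript length and library size, so it can be compared between transcripts of different length. Of 20263 genes, 10233 had a transcript at this level, 5220 had at least 2, and 2990 of these had 3′ ends 500 bp or more apart. A further 1341 were left out for spread 5′ ends and 168 for an overlapping gene, which left 1481 genes with 4530 kept transcripts. The genes were thus chosen by annotated ends and by the mean FPKM over all libraries, without regard to group. Even so, 501 of the kept transcripts reached a mean of 1 FPKM in shCtrl alone and 272 in shIGF2BP3 alone, so such transcripts were bound to differ to some degree. With the same rule applied to each group by itself, 1330 of the 1481 genes were found in shCtrl, 1221 in shIGF2BP3 and 1097 in both.

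Most human genes can be cleaved and polyadenylated at more than one site. In tandem 3′ UTRs the proximal and distal sites lie in the same last exon, and choosing the distal one lengthens the UTR without changing the protein. Sites in introns or in alternative last exons change the end of the protein as well. The CPSF and CSTF complexes recognise the signal and the downstream element, and the CFI complex, which includes CPSF6, favours distal sites in many genes. IGF2BP3 is an RNA-binding protein and m6A reader that often binds 3′ UTRs and stabilises its target transcripts.

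For each gene, transcripts whose 3′ end lay less than 500 bp from the farthest one were called distal (2280 transcripts) and the others proximal (2250). The distal share is the FPKM of the distal transcripts as a percentage of all kept FPKM of that gene. These are estimates that apportion short reads among annotated transcripts, not reads that mark a cleavage site, and an annotated end can belong to an incomplete transcript model.

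The targeted gene had 41.1 and 32.9 CPM (counts scaled to library size) in shCtrl and 26.4 and 24.8 in shIGF2BP3, a log2 fold change of -0.53 ± 0.17 (SE). The groups did not overlap, but edgeR's adjusted p was 0.472. Total counts ran from 29709686 to 34817513, lowest in shIGF2BP3 replicate 2. The keratin genes KRT8 and KRT18 were high in all libraries, at 330 FPKM or more, while the epithelial cadherin gene CDH1 was at most 0.0103 FPKM and VIM, a mesenchymal marker, was at least 1828 FPKM. KRT19 was at most 0.172 FPKM, and EPCAM was not matched to a gene. Of 5 markers of other cells, the leukocyte gene PTPRC was listed at 0 in every library and the endothelial gene PECAM1 was at most 0.0411 FPKM. The other 3, VIM, CDH2 and COL1A1, had log2 fold changes of 0.40, 0.07 and 1.05 with a smallest adjusted p of 0.476 (edgeR), and their part in the results was not tested.

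The distance between the outermost 3′ ends ran from 501 to 356062 bp with a median of 3122 bp. Just inside this limit were RPL13A at 501 bp and TAX1BP1 at 502 bp, and just outside were RNH1 at 495 bp and MICOS13 at 493 bp. For the 5′ window the nearest genes inside were MPC2 at 1000 bp and TRIP13 at 999 bp, and WEE1 fell outside at 1006 bp, as did ENSG00000183283 at 1003 bp. For the level, STAT3 and NDUFAF6 were just inside with a second transcript at 1.003 FPKM, and ACLY and MED29 were just outside at 0.9997 FPKM. Pairs were most common, with 719 genes at 2 kept transcripts and 371 at 3, and OCIAD1 had the most with 12.

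The end that RefSeq gives for the gene (GRCh38.p14) lay within 50 bp of a distal transcript end in 1111 genes and of a proximal one in 35. It matched neither in 239, and 96 genes had no symbol. The ratio of count to FPKM gives an effective length for each transcript, which was scaled so that the 13 mitochondrial transcripts matched their span. In 1095 of 1183 genes with enough counts the leading distal transcript was longer than the leading proximal one, with medians of 3093 and 1592 bp. In 481 of these 1183 genes the difference in length was within 20% of the distance between the 2 ends, the pattern of a single added stretch of exon.

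In shCtrl the distal end carried most of the FPKM in 1015 of the 1481 genes (68.5%). The share was above 90% in 335 genes and below 10% in 73. The 4 genes with the highest FPKM all encode ribosomal proteins, and their shares lay at either extreme. RPL35 was 99.4% and 99.5% distal in shCtrl and 99.6% and 99.7% in shIGF2BP3. RPL7A was 97.0% and 97.3% distal in shCtrl and 97.5% and 97.1% in shIGF2BP3. RPS20 was 2.19% and 1.89% distal in shCtrl and 2.09% and 2.41% in shIGF2BP3, and RPS24 stayed at or below 0.153% in every library. At these very abundant genes one end was used almost alone in both groups.

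The median distal share of the 1481 genes stood at 70.1% and 73.2% in shCtrl and at 74.1% and 79.6% in shIGF2BP3. Over genes, the median of the differences between group means was 1.43 percentage points. Gene by gene, the median absolute difference between the group means was 5.65 points, against 5.45 points between the shCtrl libraries and 4.99 points between the shIGF2BP3 libraries. The latter compare single libraries and the former means of 2, so they are not on the same footing, and no test was made over the set.

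Both shIGF2BP3 libraries lay above both shCtrl libraries in 458 genes (30.9%) and below them in 194 (13.1%), and the groups overlapped in 829. Over all 2988 genes with 2 ends and a share in every library, the corresponding percentages were 31% and 12.2%. The 1507 such genes outside the set had a median difference of 1.71 points. A shift of this size was thus also seen where 5′ ends lay more than 1000 bp apart or genes overlapped. The share moved by 10 points or more without overlap in 214 genes upward (14.4%, against 13.8% of all) and in 100 downward (6.75%, against 5.69%). The dominant end changed without overlap in 130 genes (8.78%, against 7.56% of all), to the distal end in 95 and to the proximal end in 35.

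Other properties of the libraries differed as well. Mitochondrial genes took 9.11% and 13.4% of counts in shCtrl and 11.4% and 17.02% in shIGF2BP3. Proximal transcripts of the set listed at 0 numbered 38 and 76 in shCtrl and 61 and 141 in shIGF2BP3, and distal ones 23 and 30, then 43 and 68. The part of depth and of mitochondrial share in the difference was not tested. Among the 1097 genes found in each group by itself, 302 were higher and 129 lower without overlap, with a median difference of 1.04 points. The shares over all genes with 2 ends, a set not restricted in this way, were 31% higher and 12.2% lower.

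**Figure D1:**
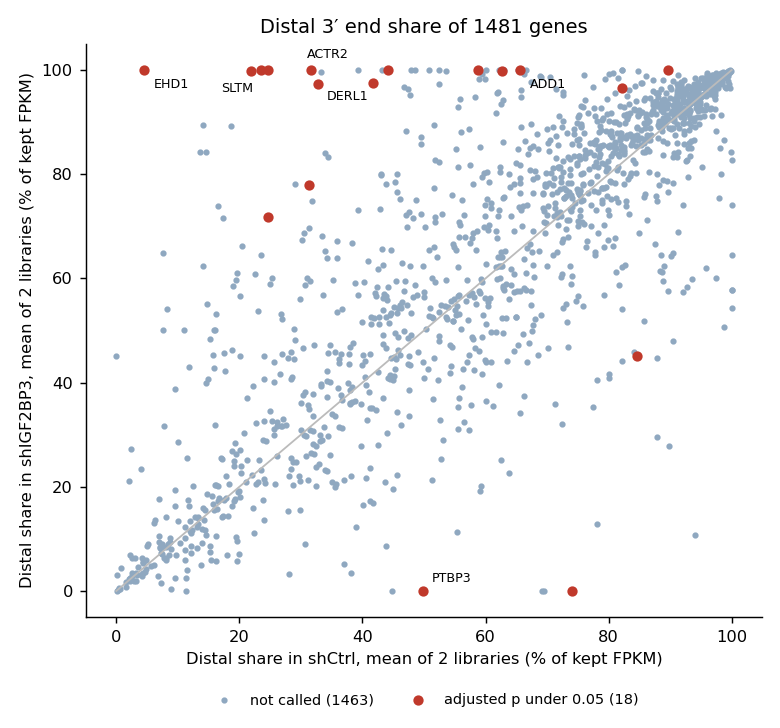
Mean distal share (% of kept FPKM) of 1481 genes in shCtrl (x axis, 2 libraries) and shIGF2BP3 (y axis, 2 libraries), with the line of equality. The 18 genes called in the 3′ end usage test are red, 15 of them above the line and 3 below it, and the 6 with the smallest p are named.

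The share of genes that moved toward the distal end was highest where the ends lay close together. Of the 241 genes with ends under 1000 bp apart, 88 were higher without overlap and 25 lower. Of the 297 genes from 1000 to under 2000 bp, 105 were higher and 39 lower. At 2000 to under 5000 bp 124 of 412 were higher and 49 lower, and at 5000 to under 20000 bp 100 of 361 were higher and 46 lower. Of the 170 genes at 20000 bp or more, 41 were higher and 35 lower. Genes outside the set did not share this order, with 24.6%, 35.7%, 31.2%, 33.4% and 27.4% higher from the shortest class to the longest. Their percentage lower was, as in the set, highest at 20000 bp or more, at 15.2%. The difference between classes was not tested. The 481 genes whose length difference matched the end distance had 139 higher and 60 lower, with a median difference of 2.47 points. Over all genes with 2 ends, 31% were higher and 12.2% lower without overlap.

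**Figure D2:**
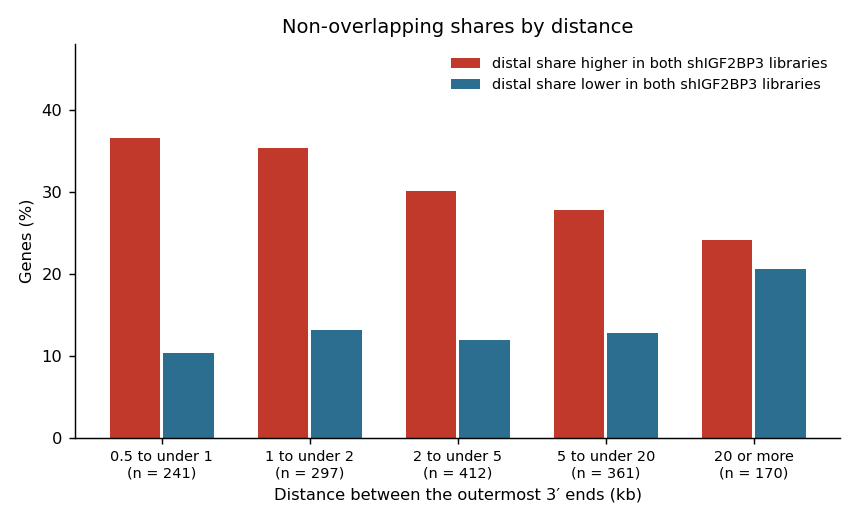
Percentage of genes (y axis) whose distal share was higher (red) or lower (blue) in both shIGF2BP3 libraries than in both shCtrl libraries, by distance between the outermost 3′ ends (x axis, kb). The red bars fall from 36.5% to 24.1%, and the blue bar is highest, at 20.6%, in the class of 20 kb or more.

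To find single genes whose ends were used differently, the estimated counts of distal and proximal transcripts were tested against each other with edgeR over all 2990 genes. Of the 1481 genes, 18 were called with an adjusted p under 0.05, against 0.836% of all genes tested, and their adjusted p ran from 0.00127 to 0.0492. The distal share was higher in 15, against 0.669% of all genes tested. These were EHD1, DERL1, SLTM, ADD1, ACTR2, BCLAF1, SH3GLB2, HNRNPH3, NUDCD1, PGM2, RHEB, ADD2, FOSL1, KPTN and GPAA1. It was lower in 3 (PTBP3, METAP2 and MYLIP), against 0.167% of all genes tested. Of the 15, distal FPKM itself was higher without overlap in 11, overlapped in 3 (SH3GLB2, NUDCD1 and GPAA1) and was lower in 1 (FOSL1). An unadjusted p of 0.05 or less was seen in 62 of the 1481 genes, against 3.81% of all, and DESeq2 called 72 at the adjusted threshold, against 4.35% of all. Distances between their ends ran from 515 bp in SLTM to 5346 bp in ADD2, and 17 of the 18 were under 2000 bp. All 18 calls were lost when shCtrl replicate 1, shCtrl replicate 2 or shIGF2BP3 replicate 2 was left out, and 8 held without shIGF2BP3 replicate 1. Only 4 of the 18 (FOSL1, HNRNPH3, METAP2 and RHEB) met the rule in each group by itself, while 13 met it in shCtrl alone and none in shIGF2BP3 alone, so the count of calls is a description of the set. In the 14 genes outside these 4, an end passed the FPKM minimum through shCtrl alone. Some difference was thus bound to appear in them, and their p-values below are a description as well.

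EHD1 encodes an ATPase that works in recycling of endosomal membrane. It lies on chromosome 11 from 64851642 to 64888296 on the minus strand, and its transcripts end 1085 bp apart. Their 5′ ends lie 994 bp apart, near the upper limit of the rule, so the transcripts differ at both ends. Distal FPKM was 2.04 and 1.57 in shCtrl and 27.5 and 24.5 in shIGF2BP3. Proximal FPKM was 37.4 and 38.0 in shCtrl and was listed at 0 in both shIGF2BP3 libraries. This proximal transcript was kept through shCtrl alone. The distal share thus went from 4.57% ± 0.85 (SD, n = 2) to 100% in both libraries, the largest rise in the set among genes with at least 30 counts in every library (adjusted p = 0.00127, edgeR). The level of the whole gene was 147 and 166 CPM in shCtrl and 145 and 141 CPM in shIGF2BP3.

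DERL1 encodes a membrane protein of endoplasmic reticulum-associated degradation. Its transcripts end 985 bp apart on chromosome 8. Distal FPKM was 12.3 and 11.1 in shCtrl and 21.9 and 20.5 in shIGF2BP3, while proximal FPKM was 28.2 and 20.6 and then 0.586 and 0.576. Both ends were detected in all libraries, and their order was inverted between the groups (adjusted p = 0.00216, edgeR).

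SLTM, a nuclear RNA-binding protein of the SAFB family, had ends 515 bp apart, near the lower limit of the rule. Its distal FPKM was 4.80 and 5.58 in shCtrl and 15.3 and 14.9 in shIGF2BP3. Proximal FPKM was 16.9 and 15 in shCtrl and was listed at 0 in both shIGF2BP3 libraries (adjusted p = 0.00216, edgeR). As in EHD1, the end that led in shCtrl was the one listed at 0 in shIGF2BP3.

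ADD1 and ADD2 encode adducins, which cap actin filaments and join them to spectrin. ADD1 had distal FPKM of 21.0 and 19.7 in shCtrl and 26.4 and 22.9 in shIGF2BP3. Its proximal FPKM was 11.7 and 9.60 and then 0 (adjusted p = 0.00237, edgeR). Its distal transcripts changed among themselves as well. One went from 19.8 and 18.4 FPKM in shCtrl to 0.978 and 3.70 in shIGF2BP3, and another from 1.00 and 0.284 to 21.7 and 18.7. ADD2 had distal FPKM of 1.33 and 1.18 in shCtrl and 2.50 and 2.33 in shIGF2BP3, and proximal FPKM of 4.76 and 4.24 and then 0.00978 and 0 (adjusted p = 0.0255, edgeR). Proximal FPKM of both adducin genes was at or near 0 in shIGF2BP3, from a minority of FPKM in ADD1 and a majority in ADD2.

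ACTR2, a subunit of the actin-nucleating Arp2/3 complex, had distal FPKM of 26.2 and 16.99 in shCtrl and 61.7 and 57.3 in shIGF2BP3. Proximal FPKM was 59.3 and 35.3 in shCtrl and 0.0600 and 0.00837 in shIGF2BP3 (adjusted p = 0.00484, edgeR). The whole gene stood at 284 and 194 CPM in shCtrl and at 275 and 278 CPM in shIGF2BP3, so its level overlapped between the groups.

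**Figure D3:**
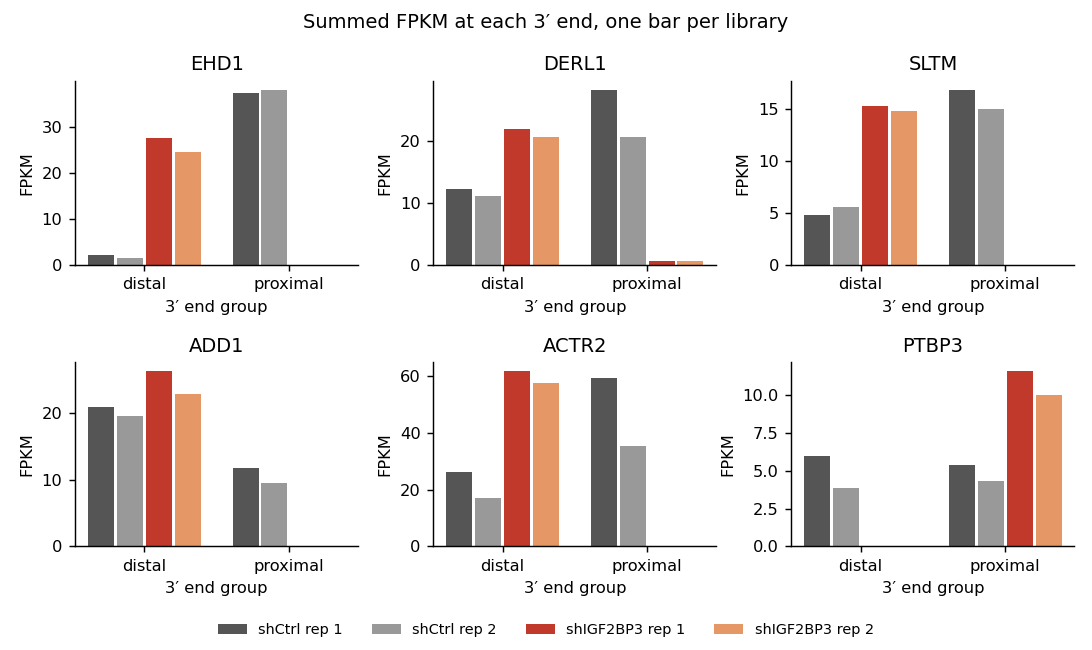
Summed FPKM (y axis) of distal and proximal transcripts of the 6 genes with the smallest p, with 1 bar per library (shCtrl in greys, shIGF2BP3 in red and orange). The proximal bars of EHD1, SLTM and ADD1 are at 0 in shIGF2BP3, and in PTBP3 the distal bars are at or near 0 instead.

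PTBP3, a paralog of the splicing repressor PTBP1, moved the other way. Distal FPKM was 5.96 and 3.84 in shCtrl and 0.00560 and 0 in shIGF2BP3, while proximal FPKM was 5.38 and 4.30 and then 11.6 and 10.1 (adjusted p = 0.00887, edgeR). MYLIP, a ubiquitin ligase that targets the LDL receptor, had distal FPKM of 3.21 and 2.74 in shCtrl and 0 in both shIGF2BP3 libraries (adjusted p = 0.0250, edgeR). It had as few as 58 counts in a library. METAP2, a methionine aminopeptidase, kept its distal transcript at 29.6 and 26.3 FPKM in shCtrl and 22.1 and 24.6 in shIGF2BP3, while its proximal one went from 5.33 and 4.83 to 29.9 and 26.8 FPKM (adjusted p = 0.0114, edgeR).

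**Figure D4:**
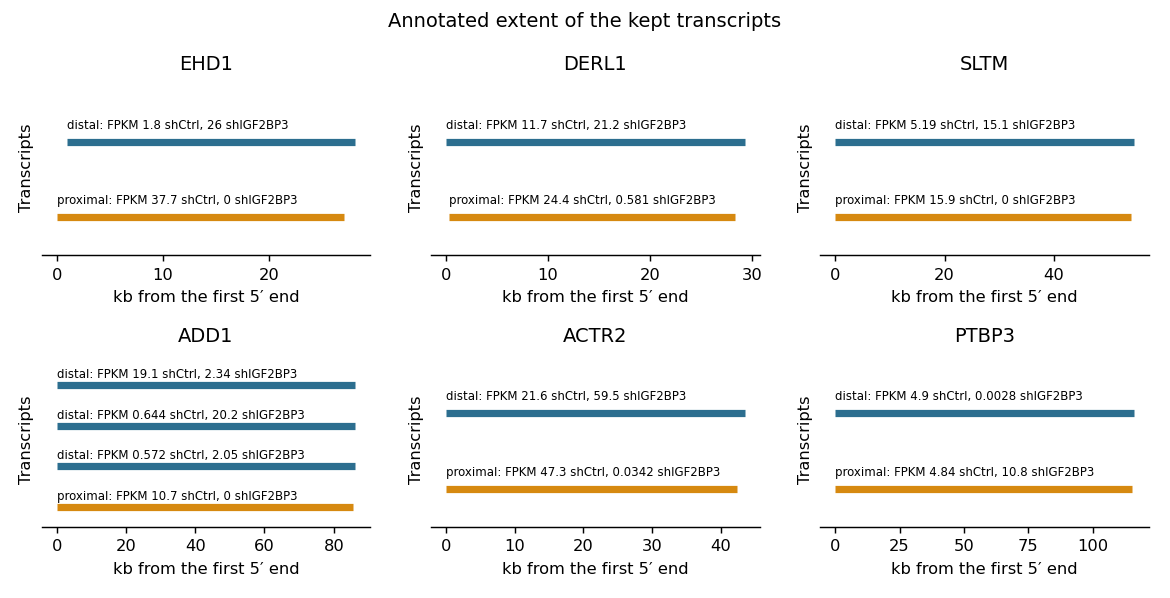
Annotated extent of each kept transcript of the 6 genes with the smallest p, in kb from the first 5′ end (x axis), with distal transcripts blue and proximal ones orange. Text above each bar gives the mean FPKM of the 2 libraries of each group, and the 3′ ends differ by 515 to 1107 bp.

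HNRNPH3 and RHEB kept both ends in all libraries. HNRNPH3, a splicing factor of the hnRNP H family, had distal FPKM of 47.8 and 41.0 in shCtrl and 114 and 121 in shIGF2BP3, and proximal FPKM of 134 and 137 and then 44.6 and 47.4 (adjusted p = 0.0106, edgeR). RHEB, the small GTPase that activates mTORC1, had distal FPKM of 36.3 and 35.8 and then 55.2 and 59.0, and proximal FPKM of 93.9 and 67.2 and then 18.4 and 13.9 (adjusted p = 0.0235, edgeR). With METAP2 and FOSL1 these were the called genes that met the rule within each group, and at all 4 the ends were apportioned differently without either being absent.

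Across the rest, the distal share rose to 97% or more in BCLAF1, SH3GLB2, NUDCD1, PGM2, KPTN and GPAA1, from shCtrl means of 23.6% in SH3GLB2 to 89.7% in GPAA1. FOSL1, a subunit of the AP-1 transcription factor, differed in level as well as in ends. Its distal FPKM was 277 and 377 in shCtrl and 168 and 186 in shIGF2BP3, and its proximal FPKM was 79.4 and 58.9 and then 6.28 and 5.997. The distal share was 82.1% ± 6.2 in shCtrl and 96.6% ± 0.33 in shIGF2BP3 (SD, n = 2). Within its distal group the transcripts moved apart, since one that ended 171 bp from the farthest end went from 106 and 108 FPKM to 138 and 150, and another that ended 425 bp from it went from 166 and 264 FPKM to 27.1 and 32.6. With the distal group drawn at 200 bp, distal FPKM was 112 and 113 in shCtrl and 141 and 153 in shIGF2BP3, so the direction of distal FPKM in FOSL1 depended on where the group was drawn, while the share was higher in both.

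**Figure D5:**
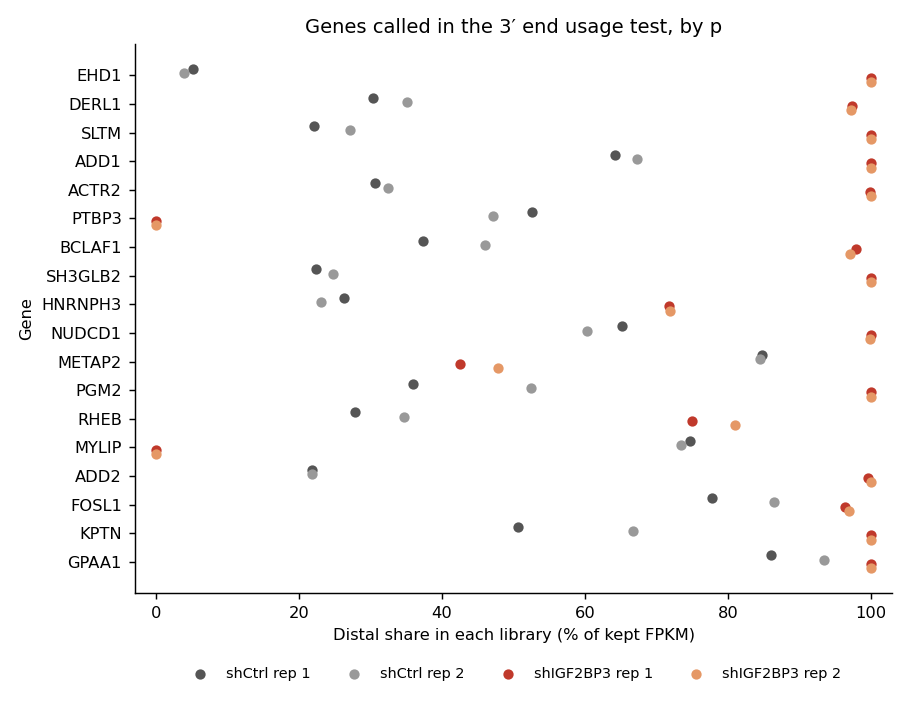
Distal share (x axis, % of kept FPKM) in each of the 4 libraries for the 18 called genes (y axis, ordered by p), with shCtrl in greys and shIGF2BP3 in red and orange. No gene has overlapping groups, and the shIGF2BP3 libraries sit at or near 100% in most genes and at or near 0% in PTBP3 and MYLIP.

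Among the largest falls, those of RMP64 and GEN1 did not pass the test. RMP64 had distal shares of 90.5% and 97.6% in shCtrl and 1.55% and 19.7% in shIGF2BP3 (adjusted p = 1, edgeR). GEN1, a Holliday junction resolvase, had 100% and 38.4% and then 0% in both (adjusted p = 1, edgeR). In GEN1 the shCtrl libraries differed from each other by more than most genes did between groups. The distal transcripts of RMP64 and GEN1 passed the FPKM minimum through shCtrl alone.

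The same genes were tested transcript by transcript, without the grouping by end, over 5220 genes. This called 26 of the 1481 genes, against 1.59% of all genes tested, and 13 of them were also called by end usage. Transcripts kept through a single group were part of this test, so its count of calls is a description as well. DESeq2 called 123, against 8.97% of all. HNRNPH3 and METAP2 have just 2 kept transcripts, so both tests used the same counts, yet their adjusted p was 0.885 and 0.993 here (edgeR). The coefficient of variation was 48.8% in the fit by end and 78.5% in the fit by transcript. RHEB and FOSL1 were not called here either, at 0.890 and 0.442.

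The other 13 genes called by transcript were not called by end usage, and in some the change lay between transcripts with a common end. In most of these 13 the transcript with the smallest p passed the FPKM minimum through a single group, so some difference was bound to appear. In HMGN1, a nucleosome-binding protein, one distal transcript went from 0.622 and 0.358 FPKM to 27.6 and 23.3 and another from 28.4 and 24.2 to 0.242 and 2.01. The distal share of HMGN1 was nevertheless 90.8% and 92.5% in shCtrl and 95.0% and 94.9% in shIGF2BP3. SHMT1, the cytosolic serine hydroxymethyltransferase, also exchanged distal transcripts, with one distal transcript going from 1.08 and 0.704 FPKM to 18.1 and 19.0 and another from 14.1 and 13.1 to 0.386 and 0.371, but its distal share differed as well, at 35.99% and 34.5% in shCtrl and 53.6% and 65.6% in shIGF2BP3. Both exchanged SHMT1 transcripts, and the HMGN1 transcript that rose, reached a mean of 1 FPKM in a single group. MAPK3, the kinase ERK1, had a distal share of 61.6% and 43.4% in shCtrl and 95.6% and 99.1% in shIGF2BP3. Its adjusted p was 0.0265 by transcript and 0.504 by end (edgeR). Its proximal transcript went from 6.96 and 12.4 FPKM in shCtrl to 0.592 and 0.0732 in shIGF2BP3. That transcript passed the FPKM minimum through shCtrl alone, so some difference was bound to appear and these p-values are a description.

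Among genes of 3′ end processing, 35 of 37 listed were tested for level. None passed an adjusted p under 0.05 or the thresholds of the study (a change of 1.5-fold or more and an unadjusted p no higher than 0.05), where 5.32% of all genes passed the latter. With the unadjusted p alone 1 passed (10.5% of all genes did), PPP1CB at 111 and 91.2 CPM in shCtrl and 127 and 150 CPM in shIGF2BP3, and DESeq2 called 0 (1.42% of all genes). The median log2 fold change of the list was 0.06, against -0.0019 over all genes.

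Within that list 9 genes had alternative 3′ ends of their own. The distal share was higher without overlap in 4 (CDK12, CDK13, CSTF1 and SSU72), lower in 1 (WDR33) and overlapping in 4 (CPSF6, CSTF3, CCNK and SNRPA). None was called. For comparison with this list and the next, 31% of all genes were higher and 12.2% lower without overlap. CSTF1, a CSTF subunit, had 59.1% and 53.9% in shCtrl and 77.2% and 67.2% in shIGF2BP3. CDK12, a kinase of the RNA polymerase II tail, had 59.7% and 55.0% and then 82.6% and 94.9%. Its proximal transcript, at a mean of 0.538 FPKM in shIGF2BP3, passed the FPKM minimum through shCtrl alone, so some difference was bound to appear. CDK13 had 19.2% and 20.1% and then 27.0% and 95.1%, so its mean rested on shIGF2BP3 replicate 2. WDR33, which contacts the polyadenylation signal, had 82.3% and 83.3% and then 76.6% and 71.3%.

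Of 30 genes listed as known for alternative polyadenylation, 5 were in the set and none was called. CDC42 was the 1 that did not overlap, at 73.6% and 73.8% in shCtrl and 76.7% and 85.5% in shIGF2BP3. CSTF3, GSK3B, ETNK1 and HMGA2 overlapped between the groups.

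For comparison with the lists that follow, 31% of all genes were higher without overlap, 12.2% were lower, and 13.8% were higher by 10 points or more. In these lists PTBP3 was the 1 gene called by end usage. RNA binding and splicing genes had 12 members, with 6 higher, 3 lower and 3 overlapping. Besides PTBP3, SRSF6 was lower by 10 points or more, at 78.3% and 87.1% and then 62.2% and 63.1%. QKI was higher, at 13.7% and 21.0% and then 44.0% and 99.1%. Its distal FPKM was 0.439 and 0.368 in shCtrl and 0.380 and 3.88 in shIGF2BP3, so it passed the FPKM minimum through shIGF2BP3 replicate 2. The proximal transcript of QKI passed through shCtrl alone, so some difference was bound to appear. Of 10 lipid metabolism genes 4 were higher and 6 overlapped. ELOVL6, a fatty acid elongase, was at 26.7% and 42.1% and then 78.5% and 87.9%. Its proximal transcript, at a mean of 0.943 FPKM in shIGF2BP3, also passed the FPKM minimum through shCtrl alone. Of 8 cell cycle genes 3 were higher and 1 lower, with CDK4 at 79.8% and 70.4% and then 87.4% and 95.3%.

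Membrane trafficking genes had 26 members, of which 9 were higher and 1 lower, and RAB35, RAP1A and VAMP7 were higher by 10 points or more. VAMP7 was at 93.4% and 44.2% in shCtrl, and without shCtrl replicate 2 its difference was 5.395 points in place of 29.995. RAP1A likewise went from 10.2 to 4.99 points, and RAB35 was at 2.06% and 30.02% in shCtrl. Ubiquitin and protein turnover genes had 16 members, with 5 higher, near the share over all genes, and 1 lower. All 5 were higher by 10 points or more (SMURF2, UBE2B, USP9X, UBE2N and UBE2G2). USP9X, a deubiquitinase, was at 27.0% and 30.9% and then 41.9% and 47.1%, and UBE2N, a ubiquitin-conjugating enzyme, at 77.2% and 80.0% and then 88.5% and 90.1%. SMURF2 and UBE2B had shCtrl libraries far apart, at 28.2% and 0% and at 32.9% and 90.9%, and without shCtrl replicate 1 the difference of UBE2B was 4.66 points in place of 33.6. Of 9 kinases and phosphatases, MAPK3 was the 1 that did not overlap. A proximal transcript of each of VAMP7, SMURF2, UBE2B, UBE2G2 and MAPK3 passed the FPKM minimum through shCtrl alone. Some difference was thus bound to appear in these genes.

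At the greatest distances between ends, the shares overlapped. PTPRK, a receptor phosphatase with ends 352262 bp apart, was at 76.9% and 72.9% in shCtrl and 76.6% and 77.6% in shIGF2BP3. ASCC3, a helicase, was at 79.2% and 76.1% and then 77.8% and 75.6%. NEDD4L, a ubiquitin ligase with the widest separation, was at 49.9% and 35.2% and then 56.2% and 0%.

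The level of the whole gene was tested to see whether genes with alternative ends changed in abundance. All 1481 were tested and 0 passed an adjusted p under 0.05 in edgeR, as was the case for all 13379 genes (0%), while 194 reached 0.05 without adjustment (10.5% of all genes did). DESeq2 called 27, against 1.42% of all genes it tested. At the thresholds of the study 31 were higher (2.09%, against 2.54% of all genes) and 39 lower (2.63%, against 2.78% of all). Of the 18 genes called by end usage, 3 passed those thresholds, all lower. SH3GLB2, a paralog of the endophilin B1 gene, was at 41.6 and 54.6 CPM in shCtrl and 22.5 and 21.3 in shIGF2BP3. MYLIP was at 11.8 and 11.3 CPM and then 3.62 and 2.11, and FOSL1 at 517 and 690 CPM and then 315 and 377. The other 15 did not pass these thresholds.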

How the data were processed

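Per the labels, the tools used upstream were CASAVA, FastQC, Trimmomatic, HISAT2 and bedtools with build GRCh38. The transcript quantifier and annotation were not given in the sources used here. For each transcript the authors deposited whole-number estimated counts, not normalized, and FPKM values per transcript, scaled by length and library size. Columns for shIGF2BP3 are numbered 2 and 3, where the labels give 1 and 2.

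Genes were named by position, where an Ensembl gene and a coding gene of RefSeq overlapped each other best (at least 0.5 of the joint length, with a lead of 0.2), which named 1385 of the 1481 genes. The members and the gene lists were chosen with earlier results of these data known. Estimated counts were tested in edgeR 4.0.16 (R 4.3.3), with diffSpliceDGE and Simes p per gene for ends and transcripts, and with TMM, filterByExpr (minimum count 10, minimum total 15) and glmQLFTest for gene level. Benjamini-Hochberg adjustment ran over all genes tested. The tests were tried on simulated data. Alternatives used DESeq2 1.42.0, limma 3.58.1 on log2(FPKM + 1) and log2(FPKM + 0.1), RLE factors, other filters, a replicate block and each library left out. Fits used all 4 libraries, and an exact permutation test of 2 against 2 cannot go below p = 0.333. The libraries of a group differed by more than sampling noise (chi-square per degree of freedom 69.5 and 68.3). Intervals from counting were not given, because the counts are estimates.

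Named genes were the 6 with the smallest p without overlap, the 4 largest rises and falls of the distal share with at least 30 counts in every library, the 4 with the highest FPKM, the 3 with the greatest end distance, those nearest each limit, those in the lists of 3′ end processing and known alternative polyadenylation, and those of other lists past 10 percentage points without overlap. A gene that this rule names is not reported here. The other called genes, and HMGN1 and SHMT1, were chosen after their values were seen.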

Additional observations from a re-analysis of the deposited data

How the results depend on the processing

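Of the 1481 genes, 18 were called by end usage in edgeR. DESeq2 called 72, limma 40 on log2(FPKM + 1) and 41 on log2(FPKM + 0.1), the replicate block 0, and an unadjusted p of at most 0.05 gave 62 (3.81% of all genes). Leaving out 1 library gave 0 to 16. Among the 1097 genes that met the rule in each group by itself, a restriction chosen after seeing the data, 4 of the 18 calls were left, by construction of the smaller set. The transcript test called 26, and DESeq2 called 123, limma 68 and 63, no FPKM minimum 10, the replicate block 2, the unadjusted p 81, and leaving out 1 library 5 to 63. For gene level, 0 became 27 in DESeq2, 3 without a filter on low counts and 0 to 15 with 1 library left out, and the 70 genes at the thresholds of the study became 58 to 193, with the highest count without shIGF2BP3 replicate 1. For 3′ end processing genes the count at these thresholds was 0 to 3 with 1 library left out. The cause of these differences was not tested. No direction of a called gene was reversed under any alternative. The median difference of the distal share stayed positive, from 0.858 to 2.54 points with 1 library left out and 0.866 points on estimated counts. Changing the limits of the rule gave 938 to 1986 genes, with median differences from 1.20 to 1.71 points. Replicate numbers marked no shared batch in the labels, and deviations of same-numbered libraries correlated at 0.0218 over genes and 0.0833 over end groups, so the block was not used as the main design. With 2 libraries per group precision was limited, and the parts of depth and of the spread between libraries in this were not tested.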
